A study of Mus musculus with 8 samples.

Results

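Macrophages sense the colony-stimulating factors (CSFs) through 3 kinds of receptor, and the genes described here are 6 of the 23761 in the deposited table. They are Csf1r, the receptor of CSF1 (also called M-CSF), Csf1 itself, Csf2ra, Csf2rb and Csf2rb2, which encode the alpha chain and the beta chains of the receptors of GM-CSF and IL-3, and Csf3r, the receptor of G-CSF. The genes were chosen by name. All 6 were listed, and 5 of the 6 reached the mean FPKM of at least 1 that was required for testing. FPKM are read fragments scaled by the length of the transcript and by the size of the library. Csf1 did not.

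CSF1R is a receptor tyrosine kinase that also binds IL-34, and its signal keeps macrophages and their precursors alive and dividing. The GM-CSF receptor joins its own alpha chain to the common beta chain, which receptors of IL-3 and IL-5 share, and it signals through JAK2 and STAT5. Mice carry a further beta chain gene, Csf2rb2, whose product serves IL-3, and the G-CSF receptor CSF3R pairs with a copy of itself and is best known from neutrophils and their precursors.

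BMDMs (bone marrow-derived macrophages) of 3-month-old LysM Cre/Cre mice (LysM, n = 4) were compared with those of LysM Cre/Cre mice that also carried KLF2 flox/flox (K2KO, n = 4), to ask how deletion of this transcription factor alters macrophage transcription. Both genotypes carry Cre recombinase driven by the lysozyme M gene Lyz2, so a deletion can occur only in cells that have turned that gene on. Marrow from the femur and tibia was cultured for 6 days in medium conditioned by L929 fibroblasts, which release CSF1, so CSF1 protein was supplied to all libraries from outside. The sample descriptions mark every library as vehicle, and what the vehicle was is not given in the sources used here. Total RNA was sequenced, and the table gives FPKM for 8 libraries, named here LysM0 to LysM3 and K2KO0 to K2KO3 after its columns. The column numbers run from 0 to 3 and those of the sample titles from 1 to 4, so a library has a genotype but is not tied to one mouse.

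The number of reads behind an FPKM is unknown, so low values do not show whether a transcript was present. Relative depth, read from the spacing of the lowest values, lay between 0.937 and 1.44 times that of LysM0, with no difference between the genotypes beyond the spread (p = 0.429 by exact two-sided permutation). LysM3 was the library farthest from the others of its genotype, at a root mean square distance of 0.622 on the log2 scale over the 10920 tested genes, against 0.418 to 0.515 for the other 7 libraries. Without it, limma gave log2 fold changes of 0.02 for Csf1r (adjusted p = 0.887), -0.11 for Csf2ra (adjusted p = 0.619), 0.20 for Csf3r (adjusted p = 0.232) and 0.72 for Csf1 (adjusted p = 0.152), and the values for the beta chain genes stand beside their calls.

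Klf2, the targeted gene, was at 44.1, 52.9, 64.7 and 72.8 FPKM in LysM0 to LysM3 and at 45.5, 41.6, 59.2 and 59.3 FPKM in K2KO0 to K2KO3. The groups overlapped, and the log2 fold change of -0.18 (SE 0.17, limma adjusted p = 0.460) was within the spread between libraries. Gene-level FPKM do not show which exons were covered, so these values do not check the deletion, and the second group is called the libraries labelled K2KO. Rpl29, a ribosomal protein gene on chromosome 9, did follow the labels, with at most 0.253 FPKM in LysM libraries and at least 336.9 FPKM in those labelled K2KO. All macrophage markers of a list of 10 were listed and none was at 0, and the most abundant of them, Cd68, was at 1834 ± 129 FPKM (SD, n = 4) in LysM libraries and 1779 ± 104 FPKM (SD, n = 4) in those labelled K2KO.

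The beta chain genes carry the main difference reported here, and because their sequences are nearly alike, reads can be hard to assign to one or the other. In GRCm38, which mm10 is based on, Csf2rb occupies chromosome 15 from 78325752 to 78353847 (plus strand). Csf2rb2 lies beside it from 78282507 to 78305721 on the minus strand. Their 5′ ends face each other across 20.0 kb. Between the coding sequences of the transcripts Csf2rb-201 and Csf2rb2-201, 2505 of 2631 aligned bases were identical (95.2%). Of windows of 50 bases, 26.0% were the same in both, and a read lying wholly within such a window fits either gene. The stretch of 90 bases within 1 exon where they differ most lies in exon 4 of both genes and is shown to display how far apart they get, with the 16 differing bases in capitals. It spans chr15:78338897-78338986 on the plus strand for Csf2rb and chr15:78294345-78294434 on the minus strand for Csf2rb2.
Csf2rb, exon 4: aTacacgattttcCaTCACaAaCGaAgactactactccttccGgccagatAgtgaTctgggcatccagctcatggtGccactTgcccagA
Csf2rb2, exon 4: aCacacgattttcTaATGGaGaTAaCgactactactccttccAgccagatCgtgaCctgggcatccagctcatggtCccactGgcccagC
At the other extreme, the longest run without a difference covers 242 bases. Its first 90 bases, in exon 14 of both genes, are printed once because they are the same at chr15:78348577-78348666 (plus strand, Csf2rb) and at chr15:78284782-78284871 (minus strand, Csf2rb2).
Csf2rb and Csf2rb2, exon 14: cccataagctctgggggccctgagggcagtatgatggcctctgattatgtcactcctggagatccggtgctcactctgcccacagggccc

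Both beta chain genes rose in the libraries labelled K2KO. Csf2rb was at 51.1, 43.3, 33.4 and 38.0 FPKM in LysM0 to LysM3 and at 68.8, 72.2, 75.5 and 58.8 FPKM in K2KO0 to K2KO3. Each library labelled K2KO was above each LysM library. The mean went from 41.4 ± 7.58 to 68.8 ± 7.22 FPKM (SD, n = 4 each), a log2 fold change of 0.74 (SE 0.13, limma with Benjamini-Hochberg adjustment, adjusted p = 0.0120) or 1.67-fold with a 95% interval of 1.34 to 2.09. An exact two-sided permutation test of Csf2rb alone gave p = 0.0286, the smallest p that 4 against 4 libraries can give.

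Csf2rb2 was at 71.7, 67.5, 47.9 and 55.6 FPKM in the LysM libraries and at 105.4, 103.8, 106.6 and 80.3 FPKM in those labelled K2KO. Again the groups did not overlap, and K2KO3 was the lowest of the libraries labelled K2KO for both beta chain genes. The mean went from 60.7 ± 10.9 to 99.0 ± 12.5 FPKM (SD, n = 4 each), a log2 fold change of 0.71 (SE 0.14, limma adjusted p = 0.0146) or 1.64-fold with a 95% interval of 1.29 to 2.08. The exact permutation test again gave p = 0.0286.

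Summed over both genes, which does not depend on how reads were divided between them, beta chain FPKM were 122.8, 110.8, 81.3 and 93.6 in LysM0 to LysM3 and 174.3, 176.0, 182.0 and 139.1 in K2KO0 to K2KO3. The sum had a log2 fold change of 0.73 (SE 0.14, limma adjusted p = 0.0133). Genes with an adjusted p below 0.05 and a log2 fold change of more than 0.26 either way were called differentially expressed. Among the 5 tested genes, Csf2rb and Csf2rb2 were the 2 called. Of all 10920 tested genes, 18.4% were called, with 9.84% higher and 8.61% lower in libraries labelled K2KO, and the groups did not overlap in 23.1%. The calls of Csf2rb and Csf2rb2 held in 8 of 8 fits with a library left out, among them the fit without LysM3 (log2 fold changes of 0.71 and 0.68, limma adjusted p = 0.0413 and 0.0487). They were lost when all 23761 genes were tested with no filter on low values (limma adjusted p = 0.0549 and 0.0665), and that of Csf2rb2 also when limma was replaced by ordinary least squares (adjusted p = 0.0531).

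Csf2rb2 exceeded Csf2rb in 8 of 8 libraries. The ratio was 1.47 ± 0.0675 in LysM libraries and 1.44 ± 0.0703 in those labelled K2KO (SD, n = 4 each). The log2 difference of the ratio was -0.03, smaller than the spread between libraries (exact permutation test, p = 0.571). It was 1 of 4 ratios tested, and its p adjusted over the 4 was also 0.571.

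**Figure D1:**
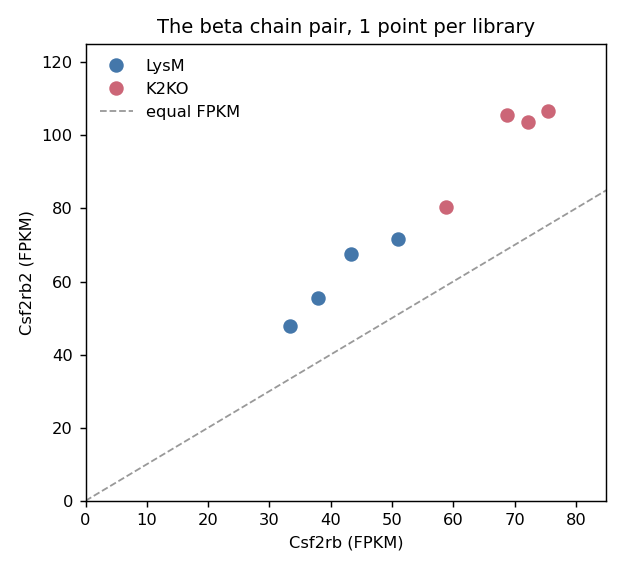
FPKM of Csf2rb (horizontal axis) and Csf2rb2 (vertical axis), with 1 point per library, blue for LysM and red for K2KO, and a dashed line where both would be equal. All 8 points lie above the line, and the 4 K2KO points lie above and to the right of the 4 LysM points.

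Around the pair, 13 other tested genes lay within 0.5 Mb, of which only Txn2, a mitochondrial thioredoxin, was differentially expressed, and it fell. Within 5 Mb, 15.8% of 146 tested genes were differentially expressed, against 18.4% of all tested genes. The gene most like Csf2rb over the 8 libraries was Csf2rb2, with a root mean square difference of 0.0603 between their centred log2 values, among 10919 genes compared. Gm7019, on chromosome 12, was next for both, at 0.0808 from Csf2rb and 0.0714 from Csf2rb2. The coding sequences of Csf2rb and Csf2rb2 were 95.2% identical, so reads can be hard to assign between them. Whether this adds to their likeness was not tested.

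Of the 6 genes, 4 were found in the RefSeq promoter table of GRCm38.p6. The promoter of Csf2rb2 is shown because this gene moved together with its neighbour. The 250 bases before its start, at chr15:78305722-78305971 on the minus strand, held 2 matches to CACCC, the core of sites bound by KLF factors, and 1 match to GAGGAAG, a core of sites of PU.1, the macrophage lineage factor. Matches on either strand are in capitals and do not overlap.
Csf2rb2, promoter: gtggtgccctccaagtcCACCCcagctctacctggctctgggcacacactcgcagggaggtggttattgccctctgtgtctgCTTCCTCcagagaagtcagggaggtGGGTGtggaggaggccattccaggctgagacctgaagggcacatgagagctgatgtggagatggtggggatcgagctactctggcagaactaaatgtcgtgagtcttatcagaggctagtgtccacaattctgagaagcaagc
CACCC was found in 52.0% of 32851 promoter windows of this length and GAGGAAG in 10.6%. A further match in this window, to TTCNNNGAA, the letters of STAT sites, is shared by 7.0% of the windows. The promoter of Csf3r held 4 matches to CACCC and 1 to GAGGAAG, that of Csf2ra held 3 and 2, and that of Csf1 held neither. These are matches of letters only.

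Csf1r was the most abundant of the 6 genes and did not pass the test. It lies on chromosome 18 from 61100598 to 61132149 (plus strand). It was at 517, 516, 515 and 547 FPKM in LysM0 to LysM3 and 600.3, 497, 527 and 479.7 FPKM in K2KO0 to K2KO3. The libraries labelled K2KO held both the highest and the lowest value, and the LysM range lay inside theirs. With means of 524 ± 15.4 and 526 ± 53.2 FPKM (SD, n = 4 each), the log2 fold change was 0.00 (SE 0.08, limma adjusted p = 0.989), and its 95% interval runs from 0.875-fold to 1.15-fold. Csf1r ranked 122 of 10920 tested genes by mean FPKM. It shares 873 bases with Hmgxb3 on the opposite strand, and whether the counting used strand is not given in the sources used here. At a mean of 3.08 FPKM, Hmgxb3 was far below Csf1r. The genes most like Csf1r over the 8 libraries were Cbx7 (root mean square difference of 0.0434) and Diexf (0.0435).

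The transcript of the ligand Csf1 was low in all libraries. It lies on chromosome 3 from 107741048 to 107760469 on the minus strand. In LysM0 to LysM3 it was at 0.458, 0.516, 0.409 and 0.493 FPKM, and in K2KO0 to K2KO3 at 0.932, 0.529, 0.697 and 1.30 FPKM. The lowest library labelled K2KO was just above the highest LysM library, so the groups did not overlap, which was so, with K2KO the higher, in 11.5% of the 14521 genes whose mean FPKM was 0.1 or more. Fitted among these genes, its log2 fold change was 0.70 (SE 0.24, limma adjusted p = 0.0815), or 0.33 with a pseudocount of 1 (adjusted p = 0.0942), which does not pass the test, while the exact permutation test of Csf1 alone gave p = 0.0286. Relative to Csf1r, Csf1 was at 8.96e-04 in LysM libraries and at 0.00166 in those labelled K2KO, a log2 difference of 0.70 (exact permutation test, p = 0.0286, adjusted over 4 ratios 0.0381, or 0.0571 with a pseudocount of 0.01). Csf1r alone changed by 0.0019, so this ratio restates the difference of Csf1 and is no separate support for it.

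Stromal cells make CSF1, so their markers were read beside it. The 9 stromal markers summed to 0.644, 1.46, 0.353 and 0.295 FPKM in LysM0 to LysM3 and to 3.52, 1.03, 0.683 and 2.04 FPKM in K2KO0 to K2KO3. K2KO0 and K2KO3 were the highest libraries both for this sum and for Csf1, but the sums overlapped between the genotypes, and LysM1 had a higher sum than K2KO1 and K2KO2 with less Csf1. Of the 9 markers, 8 were higher by their mean in libraries labelled K2KO, Lepr was listed at 0 throughout, and the most abundant was Dcn, at 0.271 and 0.691 FPKM. None of the 5 with a mean FPKM of 0.1 or more was called by limma or by ordinary least squares (2 had an unadjusted p under 0.05), and 4.03% of the 3601 genes at 0.1 to 1 FPKM were called. Among them, Col1a1, Col3a1 and Pdgfrb had LysM means of 0.0906, 0.0612 and 0.0860 FPKM. These genes met the minimum only through the libraries labelled K2KO, so the test adds no support to a difference in them. The part of stromal RNA in the difference of Csf1 was not tested.

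**Figure D2:**
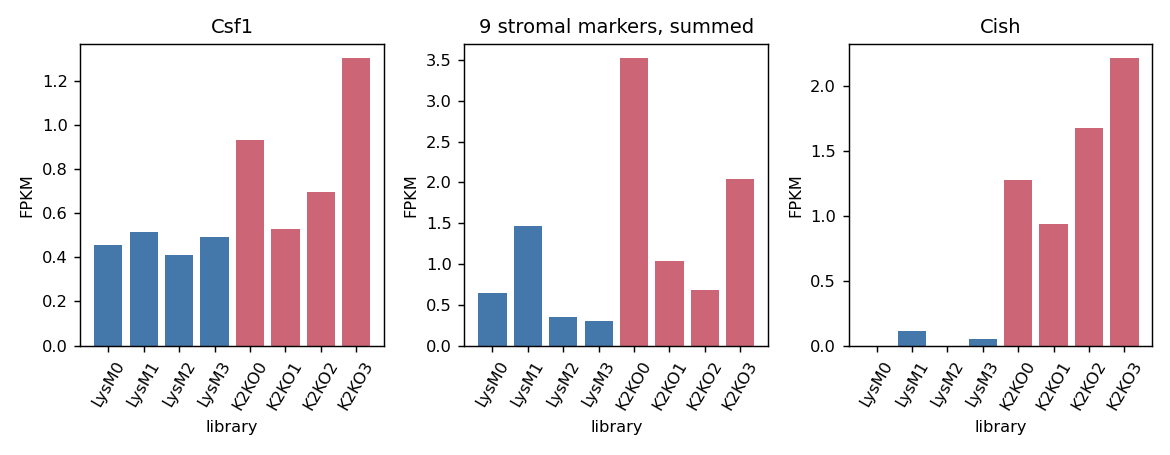
FPKM in each library (bars, blue for LysM and red for K2KO) of Csf1, of 9 stromal markers summed, and of Cish, each on its own vertical axis. K2KO0 and K2KO3 are the 2 highest libraries in the first and second panels, and Cish is at most 0.113 in LysM libraries and at least 0.938 in those labelled K2KO.

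The other CSF ligands were near or at the bottom of the table. Csf2, which encodes GM-CSF, was listed at 0 in all libraries but K2KO1 (0.0538 FPKM), and Csf3, which encodes G-CSF, in all but K2KO0 (0.137 FPKM). Il34, the other ligand of CSF1R, and Il5 were listed at 0 in all 8 libraries, and Il3 was not analysed here.

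Csf2ra, the alpha chain that binds GM-CSF, did not pass the test. It lies on chromosome 19 from 61223957 to 61228429 on the minus strand. In LysM0 to LysM3 it was at 247, 189, 160.0 and 174 FPKM, and in K2KO0 to K2KO3 at 183, 192, 164 and 186 FPKM. LysM0 stood above the other 7 libraries, which lay between 160.0 and 192 FPKM. The means were 193 ± 38.0 and 181 ± 12.1 FPKM (SD, n = 4 each), and the log2 fold change was -0.07 (SE 0.13, limma adjusted p = 0.708), with a 95% interval of 0.770-fold to 1.18-fold. Without LysM0 it was 0.06 (limma adjusted p = 0.649). LysM0 also had the lowest sum of 8 monocyte markers, at 37.5 FPKM against 61.4 to 88.8 FPKM in the other libraries, and whether this bears on its Csf2ra was not tested. Dagla (root mean square difference of 0.0807) and Zfp385a (0.0809) were the genes most like Csf2ra.

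The proportion of the alpha chain to the common beta chain was lower in every library labelled K2KO. Csf2ra was at 4.83, 4.38, 4.79 and 4.59 times the FPKM of Csf2rb in the LysM libraries and at 2.66, 2.66, 2.17 and 3.17 times in those labelled K2KO. The ratio did not overlap between the groups. Its log2 difference was -0.81 (exact permutation test, p = 0.0286, adjusted over 4 ratios 0.0381, or 0.0571 with a pseudocount of 0.01). Csf2ra alone changed by -0.07 and Csf2rb alone by 0.74. The ratio therefore mostly restates the rise of Csf2rb and is no separate support for it.

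Il3ra, the alpha chain that binds IL-3 and a related receptor rather than one of the 6 genes, fell. It lies on chromosome 14 from 14346275 to 14356011. It was at 119, 146, 115 and 136 FPKM in LysM0 to LysM3 and at 84.7, 77.4, 79.2 and 118 FPKM in K2KO0 to K2KO3, so that 3 of the 4 libraries labelled K2KO lay below all LysM libraries and K2KO3 lay among them. The log2 fold change was -0.54 (SE 0.14, limma adjusted p = 0.0292). Without LysM1, LysM3, K2KO0, K2KO1 or K2KO2 in turn, the log2 fold change lay between -0.52 and -0.47 and the call was lost (limma adjusted p = 0.0731 to 0.0813), as it was after correction for GC content and transcript length (-0.36, adjusted p = 0.0568), with quantile normalization (-0.38, adjusted p = 0.0596), with ordinary least squares (adjusted p = 0.0784) and with no filter on low values (adjusted p = 0.108). Il5ra, the alpha chain for IL-5, was listed at 0 in 6 libraries and at 0.0285 and 0.0197 FPKM in K2KO1 and K2KO3.

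Csf3r did not pass the test either. On chromosome 4 from 126024550 to 126044440 on the plus strand, it was at 24.4, 25.9, 24.0 and 26.4 FPKM in LysM0 to LysM3 and at 34.3, 25.0, 27.5 and 27.9 FPKM in K2KO0 to K2KO3. K2KO1 lay within the LysM range and the other 3 libraries labelled K2KO lay above it. The means were 25.2 ± 1.15 and 28.7 ± 3.99 FPKM (SD, n = 4 each), and the log2 fold change was 0.18 (SE 0.09, limma adjusted p = 0.184), with a 95% interval of 0.967-fold to 1.33-fold. The exact permutation test gave p = 0.0857. As a ratio to Csf1r it was 0.0480 ± 0.00160 in LysM libraries and 0.0545 ± 0.00384 in those labelled K2KO (SD, n = 4 each), a log2 difference of 0.18. The ratios of LysM1 and K2KO1 were both 0.0502 and overlapped slightly as deposited. The p of an exact permutation test therefore rests on the pseudocount, being 0.0286 with 0.1 and 0.0571, above the threshold of 0.05, with 0.01, and no difference of this ratio is called. The genes most like Csf3r were Tesk2 (root mean square difference of 0.0609) and Rab32 (0.0658).

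**Figure D3:**
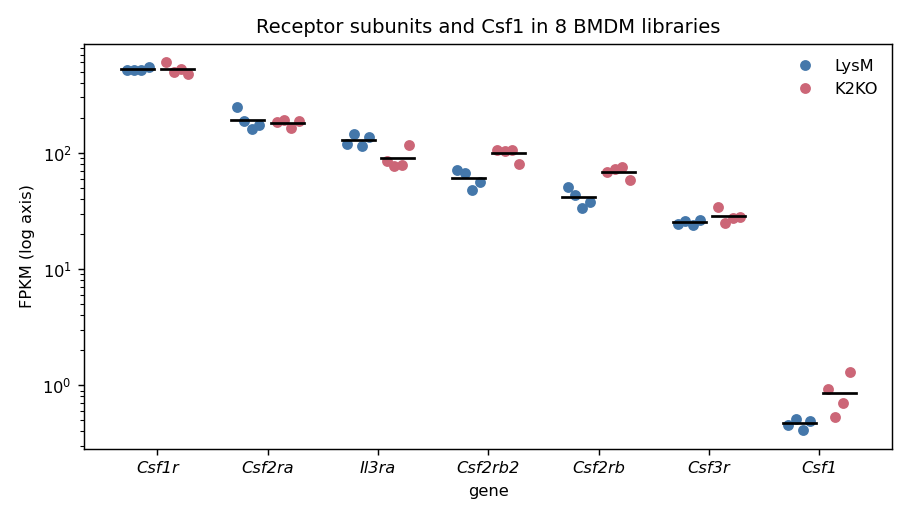
FPKM on a log axis of the 6 genes and Il3ra, with 1 point per library (blue for LysM, red for K2KO) and a bar at each mean. Csf2rb and Csf2rb2 sit higher in all 4 libraries labelled K2KO, while Csf1r, Csf2ra and Csf3r overlap between the genotypes.

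FPKM are scaled by transcript length, so levels can be ordered between genes. In LysM libraries the order by mean was Csf1r, Csf2ra, Il3ra, Csf2rb2, Csf2rb, Csf3r and Csf1. Neighbours in this order had ranges that did not overlap, except Csf2rb2 and Csf2rb, of which Csf2rb2 was still the higher in 4 of 4 libraries. In the libraries labelled K2KO, Csf2rb2 and Il3ra changed places and overlapped, with Csf2rb2 the higher in 3 of 4 libraries. The order of the others was the same.

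**Figure D4:**
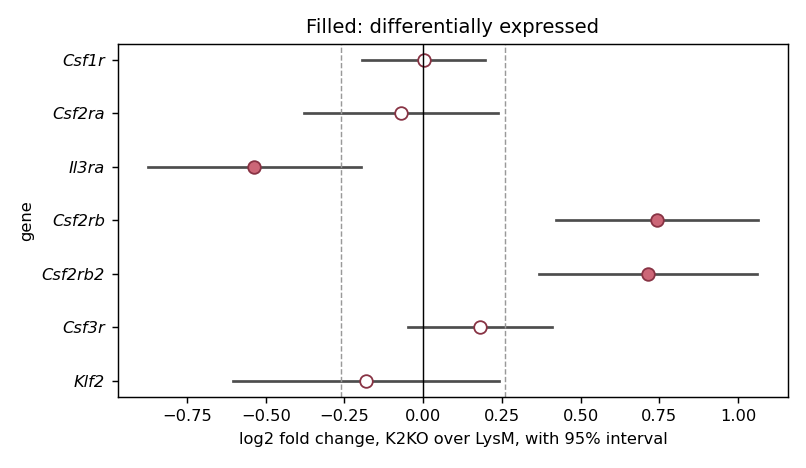
Log2 fold change of K2KO over LysM (points) with 95% intervals (lines) for the 5 tested genes, Il3ra and Klf2, filled where differentially expressed, with dashed lines at 0.26 either way. The intervals of Csf2rb and Csf2rb2 lie wholly above the upper dashed line, that of Il3ra lies below 0, and the other 4 cross 0.

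Bulk RNA holds all cells of a culture, in which fewer cells of a type and less RNA per cell cannot be told apart. CSF receptors are shared with granulocytes, mast cells and their precursors, so markers of these cells were read beside them. The 16 markers of neutrophils and granulocyte precursors summed to 207, 304, 259 and 357 FPKM in LysM0 to LysM3 and to 203, 323, 261 and 345 FPKM in K2KO0 to K2KO3. The groups overlapped throughout, with means of 282 ± 63.9 and 283 ± 64.3 FPKM (SD, n = 4 each), and S100a9 was the most abundant at 132 and 126 FPKM. Of 11 tested, 1 was called, against 18.4% of all tested genes. This was Camp, an antimicrobial peptide of neutrophil granules, which fell (log2 fold change -1.14, SE 0.24, limma adjusted p = 0.0178), a call lost without LysM1, LysM3 or K2KO2 (adjusted p = 0.0511 to 0.0554). Camp lies on chromosome 9, 3.42 Mb from Rpl29. Of the 111 tested genes within 5 Mb of Camp 28.8% were differentially expressed, and of the 8 within 0.5 Mb 0 were. Markers of mast cells, basophils and eosinophils, of which 8 of 9 were listed, came to 6.97 ± 1.65 and 6.95 ± 1.61 FPKM (SD, n = 4 each), led by Prg2. Monocyte markers came to 70.3 ± 22.5 and 74.6 ± 9.53 FPKM (SD, n = 4 each), led by Ccr2, and none of the 7 tested was called by limma or ordinary least squares (1 had an unadjusted p under 0.05), with 18.4% of all tested genes called.

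Of 9 tested macrophage markers, 1 rose and 1 fell, near the 18.4% called among all tested genes. The sum of all 10 was 3696, 3794, 3578 and 3688 FPKM in LysM0 to LysM3 and 3294, 3337, 3464 and 3501 FPKM in K2KO0 to K2KO3, without overlap. The separation ended when either Cd14 or Adgre1 was left out of the sum, an alternative added after the values were seen, and held without each of the other 8 markers in turn. FPKM summed over each whole library also tended to be lower in those labelled K2KO. These totals were 497253, 537664, 540497 and 551608 in LysM0 to LysM3 and 448235, 460383, 483726 and 501965 in K2KO0 to K2KO3. How far this bears on the marker sum was not tested. Cd14, a receptor for bacterial lipopolysaccharide, was at 1028 ± 56.7 and 829 ± 118 FPKM (SD, n = 4 each) and was not called (log2 fold change -0.32, limma adjusted p = 0.0630), and neither was Adgre1, the marker F4/80 (0.02, limma adjusted p = 0.928). Without Cd14 the sums lay at 2610 to 2697 FPKM in LysM libraries and 2463 to 2673 FPKM in those labelled K2KO, and without Adgre1 at 3063 to 3430 and 2818 to 3150 FPKM. Mertk, a receptor for the uptake of dying cells, rose (log2 fold change 0.36, limma adjusted p = 0.0285), and Lyz2, the gene that carries the Cre, fell (log2 fold change -0.49, limma adjusted p = 0.0260). The call of Mertk was lost without LysM1, LysM2, LysM3, K2KO0, K2KO1 or K2KO2 (limma adjusted p = 0.0639 to 0.0807), and that of Lyz2 without LysM1, LysM3, K2KO0 or K2KO2 (limma adjusted p = 0.0619 to 0.0736). Dendritic cell markers summed to 0.933, 2.90, 2.80 and 3.66 FPKM in LysM0 to LysM3 and to 3.93, 4.52, 2.97 and 6.52 FPKM in K2KO0 to K2KO3, with Ccr7 the most abundant. Osteoclast markers, led by Atp6v0d2 and with Calcr listed at 0, came to 156 ± 17.0 and 180.4 ± 53.0 FPKM (SD, n = 4 each), and lymphoid markers, led by Cd79b, to 3.56 ± 1.41 and 5.06 ± 0.908 FPKM. How far any of these cells contributes to the values of the beta chain genes was not tested.

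The pathway around the receptors was read from 8 lists of 108 genes, of which 92 were tested. Of these, 6 rose and 14 fell, or 21.7% against 18.4% of all tested genes, and their median log2 fold change was -0.05 against 0.01 for all tested genes. With a library left out, the number called ranged from 7 of 91 (7.69%, without K2KO2) to 25 of 92 (27.2%, without K2KO3). The share of all tested genes moved alike, to 6.14% and 26.2% in these fits and to 4.98% without LysM3, where 8 pathway genes (8.70%) were called.

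Signal transducers below CSF1R formed the longest list. Of 35 tested, 2 rose and 8 fell, against 9.84% higher and 8.61% lower among all tested genes, and the median log2 fold change was -0.05. With a library left out the number called lay between 3 (without LysM3) and 12 (without K2KO3). Of the 8 that fell, 4 (Cbl, Fgr, Pik3cd and Dok2) kept the call with quantile normalization or upper quartile scaling. Dok2, an adaptor that dampens signals of tyrosine kinases, was at 43.7, 51.3, 68.6 and 63.8 FPKM in LysM0 to LysM3 and at 28.7, 29.0, 28.0 and 24.9 FPKM in K2KO0 to K2KO3. It thus fell by 1.02 on the log2 scale (SE 0.13, limma adjusted p = 0.00528), with every library labelled K2KO below every LysM library. Fgr, a kinase of the Src family, was at 3.00, 3.21, 3.81 and 3.78 FPKM against 1.61, 2.18, 1.64 and 1.36 FPKM, and fell by 1.00 (SE 0.15, limma adjusted p = 0.00772). Pik3cd, a catalytic subunit of phosphoinositide 3-kinase of leukocytes, fell by 0.43 (SE 0.07, limma adjusted p = 0.0105). These 3 calls held in 8 of 8 fits with a library left out. Cblb, a ubiquitin ligase that acts on activated receptors, rose by 0.45 (SE 0.10, limma adjusted p = 0.0187), a call lost without LysM1, LysM3, K2KO1 or K2KO2 (adjusted p = 0.0508 to 0.0591). Dok2 overlaps Xpo7 on the opposite strand over 593 bases.

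Below the beta chains and CSF3R, 13 genes of JAK-STAT signaling were tested, of which 1 rose and 1 fell, near the 18.4% called among all tested genes, with a median log2 fold change of -0.05. Jak2, the kinase bound to the beta chains, was at 3.12, 3.40, 3.33 and 3.72 FPKM in LysM0 to LysM3 and at 4.77, 4.60, 4.66 and 3.81 FPKM in K2KO0 to K2KO3, and rose by 0.38 (SE 0.09, limma adjusted p = 0.0241). K2KO3 was the lowest of its group for Jak2, as it was for both beta chain genes and for Cblb. This is not particular to these genes, since 26.2% of all tested genes were called without K2KO3, against 18.4% with all libraries. Ptpn2, a phosphatase that acts on JAK kinases, fell by 0.33 (SE 0.09, limma adjusted p = 0.0336). The call of Jak2 was lost in 5 fits with a library left out (without LysM1, LysM2, K2KO0, K2KO1 or K2KO2, limma adjusted p = 0.0554 to 0.0676) and with the correction for GC content and length (0.22, adjusted p = 0.0989). That of Ptpn2 was lost in 6 (all but those without LysM0 or K2KO3, adjusted p = 0.0605 to 0.0971).

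Cish, a feedback inhibitor that STAT5 induces, had too low a mean FPKM for the main test. It was listed at 0, 0.113, 0 and 0.0490 FPKM in LysM0 to LysM3 and at 1.28, 0.938, 1.68 and 2.21 FPKM in K2KO0 to K2KO3, with no overlap. Tested among the 14521 genes whose mean FPKM was 0.1 or more, of which 7.18% were called higher, it rose by 3.54 on the log2(FPKM + 0.1) scale (SE 0.33, limma adjusted p = 0.00129), and the call held in 8 of 8 fits with a library left out. Cish had a mean of 0.0405 FPKM in LysM libraries and 1.525 FPKM in those labelled K2KO, so it met this minimum only through the latter. The test and these fits therefore add no support to the difference in the listed values. With LysM values at or near 0 its size rests on the pseudocount, and the log2 fold change was 1.26 with a pseudocount of 1 and 5.65 with 0.01. Cish lies on chromosome 9 from 107296026 to 107302784, 0.864 Mb from Rpl29, and of the 111 tested genes within 5 Mb of Cish 32.4% were differentially expressed, against 18.4% of all tested genes. Whether the difference of Cish belongs to this region was not tested.

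Genes known to be induced by the factors themselves were read next. Of 13 tested genes induced by M-CSF, 1 rose and 2 fell, with 18.4% of all tested genes called, and the median log2 fold change was -0.15. Tfec, a transcription factor of the macrophage lineage, rose by 0.80 (SE 0.18, limma adjusted p = 0.0203), a call lost without K2KO0, K2KO1 or K2KO2 (adjusted p = 0.0550 to 0.0601). Ier3, an immediate early gene, fell by 0.59 (SE 0.14, limma adjusted p = 0.0227), a call lost without LysM1, LysM3, K2KO1 or K2KO2 (adjusted p = 0.0559 to 0.0637), and Ccnd3, cyclin D3, fell by 0.52 (SE 0.09, limma adjusted p = 0.0109) in 8 of 8 such fits. Of 10 tested genes induced by GM-CSF, none was called by limma or by ordinary least squares at a mean FPKM of 1 or more (2 had an unadjusted p under 0.05), and their median log2 fold change was 0.02. Cish belongs to this list too. Among the 15 genes of the list with a mean FPKM of 0.1 or more it was the 1 called, against 1850 of all 14521 such genes. It met this minimum only through the libraries labelled K2KO.

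Transcription factors that act on the Csf1r gene gave 1 call among 13 tested genes, with 18.4% of all tested genes called, and their median log2 fold change was -0.08. Cebpd fell by 0.59 (SE 0.14, limma adjusted p = 0.0250), a call lost without LysM2, LysM3, K2KO1 or K2KO2 (adjusted p = 0.0598 to 0.0711), and it shares 1808 bases with Spidr on the opposite strand. Among 3 tested genes for the shedding of CSF1 and CSF1R from the cell surface, Rhbdf2, which guides the protease ADAM17, fell by 0.27 (SE 0.08, limma adjusted p = 0.0416). This is just past the threshold of 0.26, and the call held in 1 of 8 fits with a library left out, the one without K2KO3 (the other 7 gave adjusted p = 0.0728 to 0.0933).

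**Figure D5:**
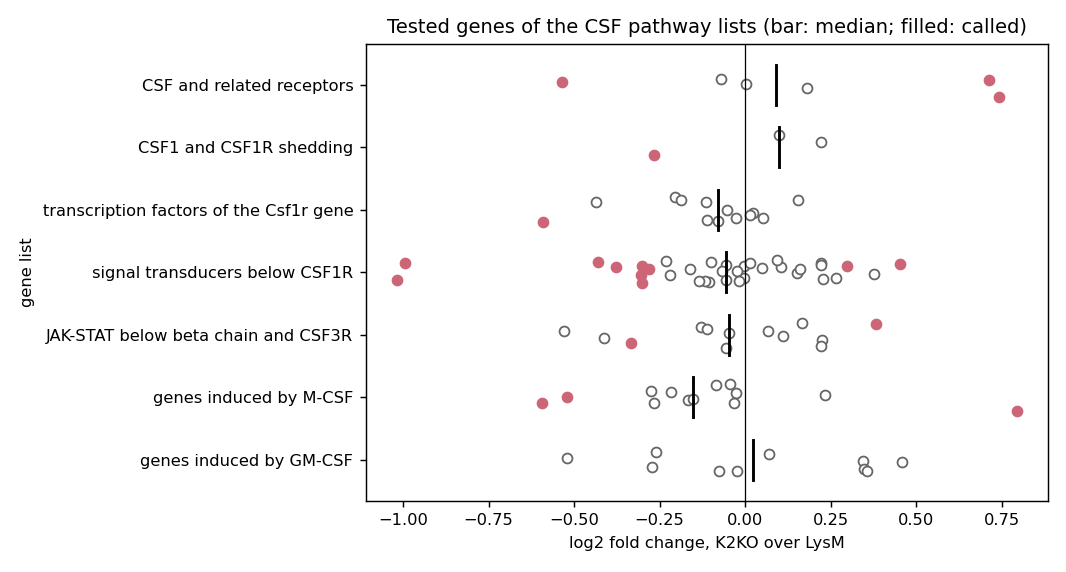
Log2 fold change of K2KO over LysM for each tested gene of 7 pathway lists (rows), filled where differentially expressed, with a bar at each list's median. In the receptor list Csf2rb and Csf2rb2 lie at 0.74 and 0.71 and Il3ra at -0.54, and in the list of signal transducers 8 filled points lie left of 0, of which 4 kept the call with quantile normalization or upper quartile scaling, and 2 right of it.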

How the data were processed

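The authors deposited 1 table of FPKM, made with Cufflinks from reads of a stranded total RNA kit aligned to mm10, with 1 column per library and no pooling. The study's methods name TopHat2 as the aligner and the submitters' processing notes name STAR, and they name different RNA isolation kits. Versions are not given in the sources used here. Identifiers were matched to GENCODE M21 (23645 of 23761). Genes at a mean of 1 FPKM or more were compared as log2(FPKM + 0.1) with limma 3.58.1 in R 4.3.3 (eBayes with an intensity trend, no covariate, Benjamini-Hochberg adjustment), and those at 0.1 to 1 in a fit at a minimum of 0.1. Fold changes on this scale understate those of low genes. Intervals use 6 degrees of freedom. Single values and ratios were compared by exact two-sided permutation, with 35 splits. Each group had 4 mice, and the labels do not tie libraries to mice. The genes, lists and tests were chosen with earlier results of these data known. Named genes are the 6 genes, their ligands and related receptors, up to 4 called genes of each pathway list with the largest change, the most abundant and up to 3 called genes of each marker list, and the 2 genes most like each tested gene. Klf2 was named as the target, and Rpl29, Txn2 and overlapping genes after their values were seen. Alternatives changed the pseudocount, the filter, the scaling, the test, the correction for GC content and length, the block and the libraries. Sequences were aligned with Biopython.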

Additional observations from a re-analysis of the deposited data

Results flagged for a closer look

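In groups of 4 libraries, the value at one end was set against the others, and 5 of 61 groups had an end value whose gap to its neighbour, as a share of the whole range, was above Dixon's 95% critical value. Chance gives about 3.1 such groups. Csf1r was at 546.7 FPKM in LysM3, above the 3 other LysM libraries. Csf2rb2 was at 80.28 FPKM in K2KO3, below the 3 other libraries labelled K2KO and still above every LysM library. Ptpn6, a phosphatase below CSF1R, was at 97.3 FPKM in K2KO1, above the others of its group. Csf2 at 0.05384 FPKM in K2KO1 and Csf3 at 0.1371 FPKM in K2KO0 were each the only value above 0 for their gene.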

How the results depend on the processing

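The calls of Csf2rb and Csf2rb2 kept their direction under all alternatives run. Without a filter on low values the log2 fold changes stayed at 0.74, 0.71 and, for their sum, 0.73, but with more genes tested all 3 were short of the threshold (adjusted p = 0.0549, 0.0665 and 0.0601), and Csf2rb2 (0.71) was also lost with ordinary least squares. With a library left out, the log2 fold change lay between 0.64 and 0.85 for Csf2rb, 0.61 and 0.81 for Csf2rb2, 0.62 and 0.82 for the sum, 0.09 and 0.24 for Csf3r, 0.50 and 0.89 for Csf1, -0.063 and 0.045 for Csf1r, -0.15 and 0.056 for Csf2ra, and -0.31 and -0.07 for Klf2. Permutation tests of these genes then compare 4 with 3 libraries and cannot go below p = 0.0571. The ratios lay between 0.46 and 0.86 (Csf1 to Csf1r), -0.90 and -0.72 (Csf2ra to Csf2rb), -0.059 and 0.0026 (Csf2rb2 to Csf2rb), and 0.15 and 0.22 (Csf3r to Csf1r). With a pseudocount of 0.01 the last was 0.18 (exact permutation test, p = 0.0571, above the threshold), and the adjusted p of the first and second became 0.0571. Correction for GC content and length turned Csf1r to -0.012, Csf2ra to 0.069 and Klf2 to 0.039, with or without the replicate block, and quantile normalization turned Csf2ra to 0.11 and moved Csf1r to 0.21 (adjusted p = 0.211), above its 95% interval. None of these passed the test in either direction, and the cause was not tested.

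Of 10920 genes, 2014 were called. The number was 483 without a filter, 746 with ordinary least squares, 1098 with the GC and length correction, 868 with that and the replicate block, and 543 (without LysM3) to 2863 (without K2KO3) with a library left out. Of the calls, 53.3% were higher in the libraries labelled K2KO, against 64.1% with upper quartile scaling and 44.2% with the GC and length correction. Among the pathway lists 20 genes were called, and 6 without a filter, 12 with quantile normalization or the GC and length correction, 8 with ordinary least squares, 9 with that correction and the replicate block, and 7 to 25 with a library left out. Of 15 called genes of the pathway and marker lists described one by one (beta chains and Cish apart), 4 (Dok2, Fgr, Pik3cd and Ccnd3) kept the call without a filter and with ordinary least squares, 12 with quantile normalization (not Il3ra, Jak2 or Rhbdf2) and 10 with the GC and length correction (not Il3ra, Jak2, Ier3, Rhbdf2 or Mertk).

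The numbers that end the column names are shared between the genotypes, but same-numbered libraries did not deviate together (correlations of -0.07, 0.02, 0.07 and -0.06), so they share only a number. With them as a replicate block 2057 genes were called, Csf2rb and Csf2rb2 kept their calls (adjusted p = 0.0201 and 0.0197), and Jak2 lost its call (adjusted p = 0.0531). The depth behind FPKM is unknown, so how firmly low values such as those of Csf1 and Cish are known cannot be given.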

Other observations

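The alpha chains of the family were also summed, a sum chosen after the values were seen, so it is given as a description. Csf2ra, Il3ra and Il5ra came to 322 ± 38.3 FPKM in LysM libraries and to 271 ± 24.9 FPKM in those labelled K2KO (SD, n = 4 each). Set against the sum of both beta chain genes, this was a ratio of 2.98, 3.03, 3.39 and 3.31 in LysM0 to LysM3 and of 1.54, 1.53, 1.34 and 2.18 in K2KO0 to K2KO3.

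Ccl22, a chemokine on the list of genes induced by GM-CSF and named after its values were seen, was at 0.222, 0.497, 0.599 and 0.805 FPKM in LysM0 to LysM3 and at 1.36, 0.739, 1.37 and 1.85 FPKM in K2KO0 to K2KO3. Tested among genes whose mean FPKM was 0.1 or more, its log2 fold change was 1.21 (SE 0.35, limma adjusted p = 0.0504), just short of the threshold. Of the 16 genes of this list, 8 were higher by their mean in libraries labelled K2KO. Cd74, the most abundant of them, was lower there, at 1313 FPKM against 1934 FPKM in LysM libraries. It was not called (log2 fold change -0.52, limma adjusted p = 0.109).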
